A study of Mus musculus with 6 samples.

Results

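The collagen genes encode the alpha chains of the collagens, and their mRNA was measured in cardiomyocyte preparations of H19 KO and wild-type (WT) mice after pressure overload. They were chosen by name: every non-control probe whose gene name begins with Col, a number, the letter a and a number. This gave 42 names among the 35440 genes of the array. Col4a3bp, which shares the prefix but encodes a ceramide transfer protein, was set aside. The other 41 were kept as collagen genes and are read by 63 probes: 11 fibrillar chains, 8 basement membrane chains (type IV with types XV and XVIII) and 22 chains of other types. Each gene was read by its brightest probe. Probes annotated under older gene names that lack this pattern (Gm7455 and Emid2) were not counted.

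All mice, in both groups, were adult and had undergone transverse aortic constriction (TAC), surgery that constricts the aorta and raises the load on the left ventricle. Cardiomyocytes were isolated 6 weeks later by retrograde perfusion of the heart, and total RNA of 3 H19 KO preparations and 3 preparations of WT littermates was hybridised to 1-colour Agilent arrays. There was no unoperated group, so a KO minus WT difference is a difference among operated animals. Strain, sex, the deleted stretch of H19 and whether an array held 1 animal or a pool are not stated in the labels. The p-values therefore measure the spread between these samples.

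Collagens are trimers of alpha chains wound into a triple helix, in which glycine recurs at a fixed, short spacing along each chain. Fibrillar types I and III form the load-bearing fibres of the cardiac interstitium, with type V as a minor chain that governs fibril diameter. Type IV forms the sheet-like network of the basement membrane that surrounds each cardiomyocyte and capillary, while type VI forms beaded microfilaments beside it. In the heart, fibrillar collagen is made mainly by fibroblasts, and its deposition after pressure overload is a hallmark of cardiac fibrosis.

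The glycine repeat can be read directly in 4 of the 63 collagen probes (6.35%), against 51 of all 55681 probes (0.0916%). These 4 are shown because they read the helix itself, and their values are set beside those of the other collagen probes further on. Capitals mark the runs of at least 4 glycine codons (GGN) placed at every ninth base. The sequences are those of the array files, 5′ to 3′, with positions on mm9.
Col14a1, chr15:55347733-55347792, plus strand: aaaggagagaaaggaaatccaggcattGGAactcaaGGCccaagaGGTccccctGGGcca
Col15a1, chr4:47283786-47283845, plus strand: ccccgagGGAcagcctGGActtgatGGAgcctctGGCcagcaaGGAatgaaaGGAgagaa
Col16a1, chr4:129756457-129756516, plus strand: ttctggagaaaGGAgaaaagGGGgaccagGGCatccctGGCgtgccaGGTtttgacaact
Col25a1, chr3:130270497-130270556, plus strand: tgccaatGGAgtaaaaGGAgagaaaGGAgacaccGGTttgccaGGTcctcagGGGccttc

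The targeted gene matched the labels on every array. H19, the targeted long non-coding RNA, was well above background on 3 of 3 WT arrays and on 0 of 3 KO arrays, and was at least 32.3-fold higher in WT (limma adjusted p = 0.00184). All 12 cardiomyocyte markers (Myh6, Tnnt2, Ttn and others) were measured, and their mean deviation per array stayed between -0.16 and 0.09 log2 units. Of these markers 8 had a difference below 0 (median -0.03). Lower on every KO array than on any WT array were 4 of the 12 (Myh6, Tnnt2, Myl3 and Mb), against 8.36% of all genes. KO 2 was the lowest array for 9 of the 12, and for 6197 of all 21888 genes tested. The 75th percentile of the intensity, to which each array was scaled, ranged from 637.9 to 928.4, and 48.8% to 58.6% of spots were well above background. The arrays lay on 2 slides. Slide 1 held WT 1 and KO 1, and slide 2 held WT 2, WT 3, KO 2 and KO 3. All levels given here are log2 intensities relative to the array's 75th percentile. Differences are KO minus WT on that log2 scale.

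Of the 41 collagen genes, 32 exceeded background clearly on 3 or more of the 6 arrays and were tested. None of these 32 passed limma's test at an adjusted p of 0.05, where 0.0365% of all 21888 genes tested passed. Before adjustment, 4 collagen genes had a p under 0.05: Col22a1 and Col5a3 were higher in KO (background for higher genes 1.06%), and Col6a6 and Col9a1 were lower (background for lower genes 6.83%). The fitted difference was above 0 for 22 of the 32 and below 0 for 10, with 39.9% of all genes above 0. The median difference was 0.36 over the collagen genes and -0.05 over all genes. Without KO array 2 it was -0.03, with 14 above 0 and 18 below. A gene that passed the filter only through its brighter group had to differ, so these counts describe the measured members and not the 41.

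The counts by class were as follows. Among fibrillar chains, 7 of the 8 measured had a difference above 0 and the median was 0.61. Among basement membrane chains it was 7 of 8, with a median of 0.31. Among the other types, 8 were above and 8 below 0, with a median of 0.07. The median over the other types was below 0 without a filter on dim probes (-0.14) and with a filter requiring 3 arrays of a genotype (-0.05). Without KO 2 the medians were 0.04 for basement membrane chains and -0.35 for the other types, and without WT 3 the latter was -0.24.

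**Figure D1:**
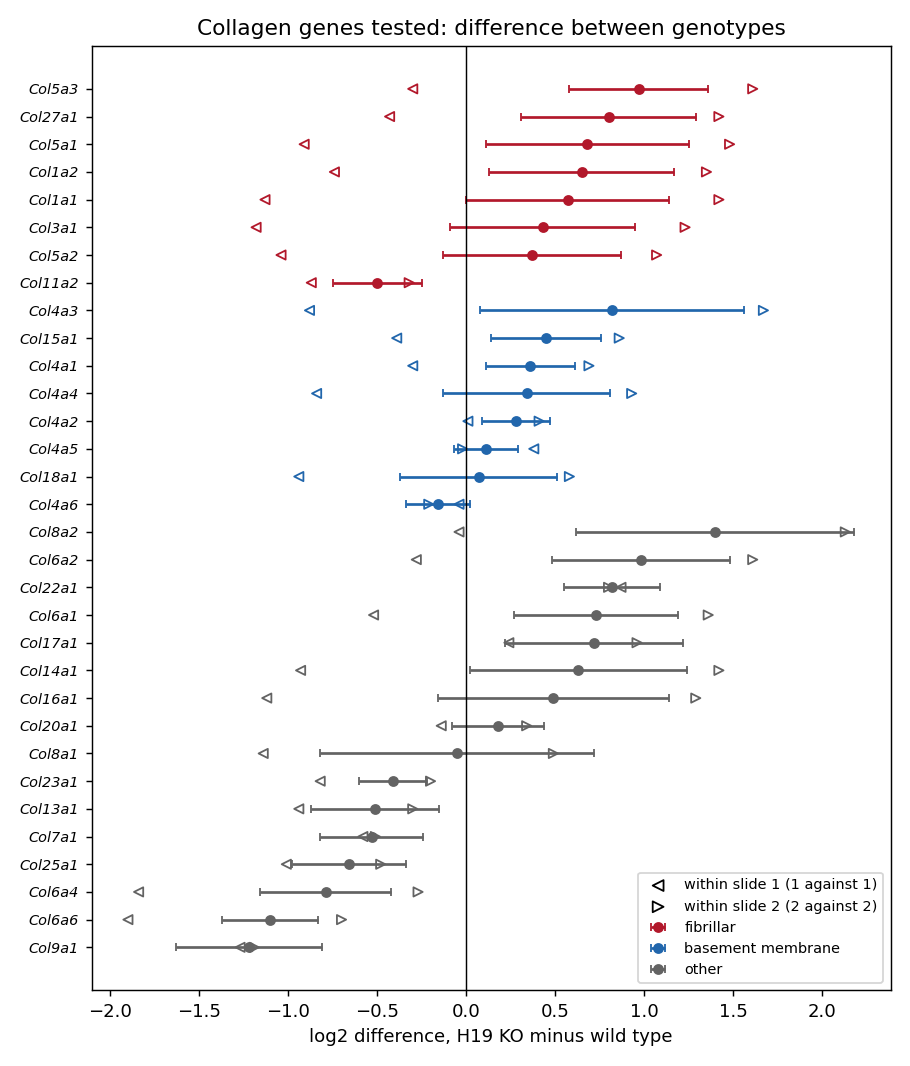
KO minus WT difference (log2, horizontal axis) of each of the 32 measured collagen genes, coloured as fibrillar, basement membrane and other; points are limma estimates, bars their standard errors (3 arrays per group), and open triangles the differences within slide 1 and within slide 2. Most fibrillar and basement membrane points lie above 0, with medians of 0.61 and 0.31, but their slide 1 triangles mostly lie below 0.

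Type I collagen is the main fibre-forming collagen of the heart. Col1a1, its alpha 1 chain, stood at 5.18, 4.24 and 3.57 on WT 1, 2 and 3, and at 4.05, 5.97 and 4.67 on KO 1, 2 and 3. The groups overlapped: KO 2 was the highest array and WT 3 the lowest, while WT 1 was above both of the remaining KO arrays. The means were 4.33 ± 0.81 (SD, n = 3) in WT and 4.90 ± 0.98 (SD, n = 3) in KO, a difference of 0.57 (SE 0.57, limma adjusted p = 0.956). Col1a2, the alpha 2 chain that joins with 2 alpha 1 chains in the type I trimer, followed the same order at the extremes, with 4.52, 3.90 and 3.16 in WT and 3.78, 5.54 and 4.21 in KO. Its difference was 0.65 (SE 0.52, limma adjusted p = 0.867).

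Col3a1, which forms the homotrimer of type III and is enriched in compliant tissue, read 6.04, 4.94 and 4.61 in WT and 4.86, 6.55 and 5.47 in KO. The difference of 0.43 was smaller than its standard error of 0.52 (limma adjusted p = 0.999). Again KO 2 was highest and WT 3 lowest, and KO 1 was below WT 2.

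Type V chains are built into type I fibrils. Col5a1 read 2.71, 1.85 and 1.23 in WT and 1.80, 3.77 and 2.28 in KO, a difference of 0.68 (SE 0.57, limma adjusted p = 0.883). Col5a2 read -0.14, -0.85 and -1.18 in WT and -1.17, 0.70 and -0.59 in KO, a difference of 0.37 (SE 0.50, limma adjusted p = 0.999). Both had the extremes seen for type I, with KO 2 the highest array and WT 3 the lowest. Col5a3, the remaining type V chain, had the smallest p of the fibrillar class. It read 1.28, 0.11 and 0.42 in WT and 0.97, 2.14 and 1.62 in KO. Only KO 1 was below a WT array, WT 1 of its own slide. The difference was 0.97, 1.96-fold, with SE 0.39 (unadjusted p = 0.0415, limma adjusted p = 0.628).

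Of the remaining fibrillar chains, Col27a1, a cartilage-associated chain, read -2.97, -3.16 and -3.98 in WT and -3.40, -1.55 and -2.74 in KO. It was well above background on only 1 WT and 2 KO arrays, and its difference was 0.80 (SE 0.49, limma adjusted p = 0.751). Col11a2, a chain of the cartilage fibril collagen XI, was the only measured fibrillar chain with a difference below 0. Its values were -1.84, -2.46 and -2.62 in WT and -2.71, -3.08 and -2.63 in KO. The groups did not overlap, though WT 3 and KO 3 were only 0.01 apart, and the difference was -0.50 (SE 0.25, limma adjusted p = 0.655). Col2a1, Col11a1 and Col24a1 were not tested. Col11a1 was well above background on 1 array of 6, KO 2.

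The fibrillar differences had opposite signs on the slides. On slide 1, KO 1 was below WT 1 for all 8 measured fibrillar chains, with a median of -0.89. On slide 2, the 2 KO arrays were on average above the 2 WT arrays for 7 of the 8, with a median of 1.38. For Col1a1 the slide values were -1.13 and 1.42, for Col1a2 -0.74 and 1.35, and for Col3a1 -1.18 and 1.23. Over all genes, 18% were lower in KO on slide 1 and higher on slide 2, against 19 of the 32 collagen genes (59.4%).

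Single arrays set the size of the fibrillar difference. Without KO 2 the class median was 0.07, and Col1a1 differed by 0.03, Col1a2 by 0.13 and Col3a1 by -0.03. Without WT 3 it was 0.25, and without WT 1 it was 0.99. Of the 8 fibrillar chains, 7 had their highest value on KO 2. This held for 21 of the 32 collagen genes (65.6%) and for 13.9% of all genes. WT 3 was the lowest array for 20 of the 32 (62.5%) and for 13.5% of all genes.

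**Figure D2:**
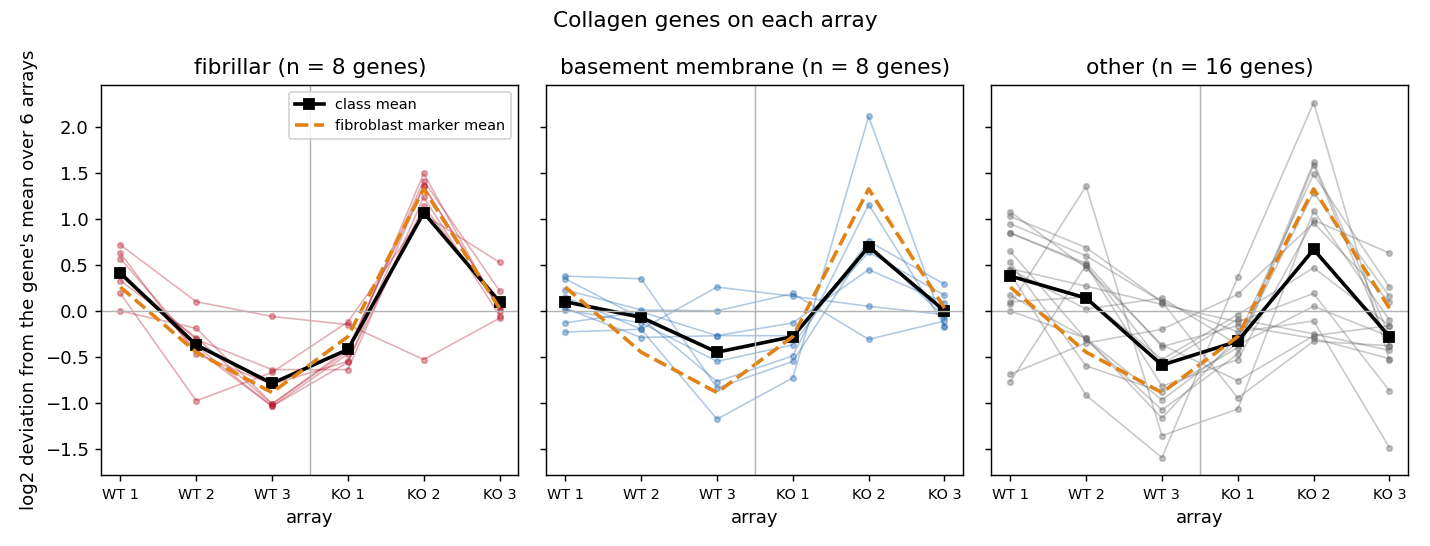
Deviation of each measured collagen gene from its own mean over the 6 arrays (log2, vertical axis) on WT 1 to 3 and KO 1 to 3, in a panel per class; thin lines are genes, black squares the class mean and the dashed line the fibroblast marker mean. The fibrillar mean and the fibroblast marker mean both peak on KO 2 (1.07 and 1.33) and are lowest on WT 3 (-0.79 and -0.89), while the basement membrane mean spans -0.45 to 0.70.

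Markers of fibroblasts varied over the same arrays. Of 18 listed (Dcn, Pdgfra, Tcf21 and others), 17 were measured, and all 17 had a difference above 0, with a median of 0.65; Lamc3 was not tested. Their mean deviation on WT 1, 2 and 3 was 0.26, -0.45 and -0.89, and on KO 1, 2 and 3 it was -0.28, 1.33 and 0.03. All 17 were highest on KO 2, as were 13.9% of all genes. On that array 9 of the 12 cardiomyocyte markers were lowest, as were 6197 of all 21888 genes. The mean difference of the fibroblast markers was 0.72, and 0.24 without KO 2. It was -0.53 on slide 1 and 1.35 on slide 2, with 15 of the 17 below 0 on the former and above 0 on the latter. The fibrillar chains stood at 0.41, -0.37 and -0.79 in WT and at -0.42, 1.07 and 0.10 in KO. Of the 10 genes listed for activated fibroblasts, 9 were measured, and 7 of these had a difference above 0; their mean was highest on KO 2 as well, at 1.01, and their mean difference of 0.38 was -0.03 without that array. Cthrc1 was not tested. A different share of fibroblasts in a preparation and a different amount of collagen mRNA per fibroblast cannot be told apart in total RNA. The part of fibroblast RNA in the collagen differences was not tested.

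Markers of other cell types spanned narrower ranges over the arrays than the fibrillar chains. Endothelial markers ranged from -0.35 on KO 1 to 0.34 on KO 2 (12 of 12 measured, 7 above 0), and smooth muscle and pericyte markers from -0.51 on WT 3 to 0.35 on KO 2 (11 of 11 measured, 7 above 0). Macrophage markers were below 0 in all 11 measured of 12, with a median of -0.30, and their highest arrays were KO 2 at 0.52 and WT 3 at 0.50. Their lowest arrays were KO 1 at -0.61 and KO 3 at -0.49. The mean difference of the macrophage markers was -0.39, and -0.75 without KO 2. Mesothelial markers stood at -0.10, -0.66 and -0.12 in WT and at 0.07, 0.72 and 0.09 in KO (6 of 8 measured, 5 above 0). Theirs was the only listed cell type whose mean was higher on every KO array, though no single mesothelial marker was. The mean difference of the mesothelial markers was 0.59, and 0.37 without KO 2, with 0.17 and 0.79 on the slides. Schwann cell markers ranged from -0.26 on WT 3 to 0.36 on KO 2 (6 of 7 measured, 3 above 0).

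When the fibroblast marker mean of each array was subtracted, the fibrillar chains flattened. The range over the 6 arrays narrowed from a median of 2.20 to 0.60 log2 units, and it was smaller for 7 of the 8. For Col1a2 it went from 2.38 to 0.29, for Col1a1 from 2.40 to 0.60 and for Col5a1 from 2.54 to 0.38. Relative to that mean, the median difference was below 0 in every class: -0.12 for fibrillar chains (6 of 8 below 0), -0.42 for basement membrane chains (7 of 8) and -0.66 for the other types (11 of 16). Over all measured collagen genes it was -0.36, with 24 of 32 below 0, where the difference before subtraction was above 0 for 22. The mean difference of the markers was 0.72, so the subtraction lowered the difference of any gene by that amount. These signs show only which genes differed by less than the markers did, and they are no separate result about collagen. The basement membrane chains did not flatten as a class: the range was smaller in 4 of 8, and its median went from 1.12 to 1.36. Among the other types, it was smaller in 7 of 16. The subtracted mean itself ran from -0.89 on WT 3 to 1.33 on KO 2, so a gene with a small range had to widen. The part of the starting ranges in the contrast between classes was not tested.

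**Figure D3:**
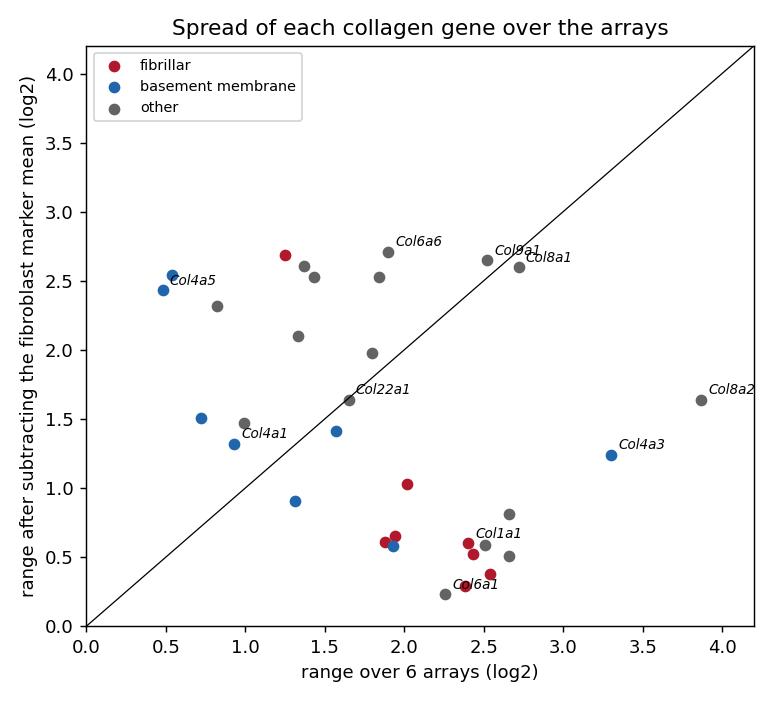
Range over the 6 arrays (log2) of each measured collagen gene as measured (horizontal axis) and after the fibroblast marker mean of each array was subtracted (vertical axis), by class. Chains below the diagonal vary less after subtraction, which holds for 7 of 8 fibrillar chains, among them Col1a2 (2.38 to 0.29), and not for Col4a5 (0.48 to 2.43). A chain with a small range widens through the subtraction itself, so the classes are not compared at equal starting ranges.

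The promoters of 3 fibrillar chains that varied together over the arrays are shown for their start-proximal sequence. RefSeq promoter windows on GRCm38.p6 matched 33 of the 41 collagen genes, with 36 windows. In the 250 bases before the start, CCAAT or its reverse complement ATTGG stood in 36.1% of collagen windows and in 33.8% of all 32851 windows. TATAAA or TTTATA stood in 13.9% and 12.4%, and GGGCGG or CCGCCC in 58.3% and 32.7%. The 150 bases before the start of Col1a2, Col3a1 and Col5a1 each held 1 of these motifs, in capitals: CCAAT 109 bases before the start of Col1a2, TATAAA 117 bases before that of Col3a1, and GGGCGG 73 bases before that of Col5a1. None of the 3 motifs was common to all 3 windows.
Col1a2, chr6:4505468-4505617, plus strand: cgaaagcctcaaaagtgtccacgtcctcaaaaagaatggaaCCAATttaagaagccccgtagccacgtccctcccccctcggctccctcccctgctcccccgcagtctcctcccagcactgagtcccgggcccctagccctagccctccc
Col3a1, chr1:45311388-45311537, plus strand: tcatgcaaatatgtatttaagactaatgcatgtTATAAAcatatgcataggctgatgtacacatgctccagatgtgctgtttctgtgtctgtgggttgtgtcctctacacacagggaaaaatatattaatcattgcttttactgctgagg
Col5a1, chr2:27886275-27886424, plus strand: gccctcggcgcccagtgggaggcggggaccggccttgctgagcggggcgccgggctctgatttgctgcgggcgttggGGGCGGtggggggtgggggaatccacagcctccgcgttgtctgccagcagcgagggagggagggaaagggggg

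The median range over the arrays was narrower for the basement membrane chains (1.12) than for the fibrillar chains (2.20). Single chains varied: the ranges ran from 0.48 to 3.30 (Col4a3) for basement membrane chains, and from 1.25 to 2.54 for fibrillar chains. Col4a1 and Col4a2 encode the chains of the ubiquitous type IV trimer and lie head to head on chromosome 8. Col4a1 read 4.11, 3.79 and 3.82 in WT and 3.81, 4.72 and 4.26 in KO, a difference of 0.36 (SE 0.25, limma adjusted p = 0.805). Col4a2 read 3.17, 3.30 and 3.04 in WT and 3.18, 3.76 and 3.40 in KO, a difference of 0.28 (SE 0.19, limma adjusted p = 0.797). In both, KO 2 and KO 3 were above every WT array, and the groups overlapped through KO 1. Without KO 2 the differences were 0.13 and 0.12.

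Col4a5 and Col4a6 lie head to head on chromosome X. Col4a5, whose chain is altered in Alport syndrome, varied least of all measured collagen genes, with 3.44, 3.46 and 3.92 in WT and 3.82, 3.72 and 3.63 in KO. Its difference was 0.11 (SE 0.18, limma adjusted p = 0.999), and its range of 0.48 log2 units compares with a median range of 1.89 over the collagen genes and 0.66 over all genes. It was highest on WT 3, the array on which 20 of the 32 were lowest. Col4a6 was the only basement membrane chain with a difference below 0 (-0.16, SE 0.18), and its second probe read 0.38 (SE 0.48).

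Col4a3 and Col4a4, neighbours on chromosome 1, encode the chains that assemble with Col4a5 in the glomerulus. Col4a3 was dim, well above background on 2 WT and 2 KO arrays. It read -3.02, -3.38 and -4.35 in WT and -3.91, -1.06 and -3.34 in KO, so its difference of 0.82 (SE 0.74) came from KO 2 and was -0.04 without that array. Col4a4 differed by 0.34 (SE 0.47), and by -0.16 without KO 2.

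Types XV and XVIII carry cleavable C-terminal domains and sit at the outer face of basement membranes. Col15a1 read -2.38, -2.52 and -2.94 in WT and -2.76, -1.63 and -2.10 in KO. The difference was 0.45 (SE 0.31, limma adjusted p = 0.798), and KO 1 was again the array that overlapped WT. Col18a1, the source of endostatin, differed by 0.07 (SE 0.44). Over the basement membrane class the slide medians were -0.34 and 0.63, and 6 of the 8 chains were highest on KO 2.

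Among the other types, the type VI chains split. Col6a1 and Col6a2, neighbours on chromosome 10, are obligate partners of the type VI trimer. Col6a1 read 4.14, 3.67 and 3.01 in WT and 3.62, 5.26 and 4.13 in KO, a difference of 0.73 (SE 0.46, limma adjusted p = 0.762). Col6a2 read -0.42, -0.72 and -1.59 in WT and -0.70, 1.07 and -0.16 in KO, a difference of 0.98 (SE 0.50, limma adjusted p = 0.665). Both followed the fibrillar pattern over the arrays, and after the fibroblast marker mean was subtracted their ranges went from 2.26 to 0.23 and from 2.66 to 0.51. The measured alternative partner chains of type VI, Col6a4 and Col6a6, had differences below 0. Col6a3 and Col6a5 were not among the 41 gene names. Both Col6a4 and Col6a6 were dim, with a mean level under -2, where 82.9% of all tested genes had a difference below 0. The part of low signal in the split was not tested.

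Col6a6, such an alternative chain, had the smallest p of all collagen genes. It read -2.67, -3.02 and -3.52 in WT and -4.56, -3.94 and -3.99 in KO. Every KO array was below every WT array. The probe was well above background on 3 WT arrays and on only 1 KO array, so it passed the filter through its brighter group and most of its KO values lie near the limit of measurement. The measured means differed by -1.10 (SE 0.27, limma adjusted p = 0.616), or by -1.32 without WT 3 (limma adjusted p = 0.0592), and no fold is given. Col6a4, another alternative chain, differed by -0.79 (SE 0.37), with overlapping groups.

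Col9a1, a chain of the cartilage collagen IX that sits on fibril surfaces, had the lowest fitted difference. It read -2.71, -3.05 and -3.64 in WT and -3.97, -3.85 and -5.23 in KO. The groups did not overlap, but this gene too was well above background on 3 WT arrays and only 1 KO array and passed the filter through WT. The measured means differed by -1.22 (SE 0.41, limma adjusted p = 0.616), and no fold is given. Its partner chains Col9a2 and Col9a3 were not tested.

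Col22a1 was the only collagen gene whose 3 KO arrays were all above the 3 WT arrays, 1 of 32 where 2.1% of all genes did so. Its chain is known from tissue junctions such as the myotendinous junction. It read -2.48, -2.14 and -1.99 in WT and -1.61, -0.83 and -1.69 in KO. KO 2 was the highest array here too, but WT 1 and not WT 3 was the lowest. The difference was 0.82, 1.77-fold, with SE 0.27 (unadjusted p = 0.0187, limma adjusted p = 0.616). It was above 0 on slide 1 (0.87) and on slide 2 (0.80). Leaving out each array in turn gave 0.55 to 0.98, and the probe was well above background on all 6 arrays. Only 3 of the 32 collagen genes were higher in KO on both slides, the others being Col17a1 (0.24 and 0.96) and Col4a2 (0.01 and 0.41), 9.38% against 12% of all genes.

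The collagen genes whose KO arrays were all below WT were Col6a6, Col9a1 and Col11a2, 3 of 32 where 8.36% of all genes did so. All 3 were dim, and Col6a6 and Col9a1 were measured clearly on only 1 KO array each. Of the 10 collagen genes with a difference below 0, 7 had a mean level under -2. Dim genes in general were lower in KO: of all 6535 tested genes with a mean under -2, 82.9% had a difference below 0, with a median of -0.44, and 63.9% were highest on WT 1. Of the 13 collagen genes in that range, 7 were below 0, with a median of -0.41. Of the 13 with a mean above 0, 12 were above 0, with a median of 0.49, where 47% of all genes in that range were below 0 and the median was 0.01. The part of low signal in the lower collagen genes was not tested.

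The fibril-associated chains Col14a1 and Col16a1, which bind the surface of fibrils, followed the fibrillar arrays on their brightest probes. Col14a1 read 1.22, 0.09 and -0.20 in WT and 0.28, 2.31 and 0.41 in KO, a difference of 0.63 (SE 0.61). Col16a1 read 1.65, 0.69 and -0.08 in WT and 0.53, 2.58 and 0.61 in KO, a difference of 0.49 (SE 0.65). Without KO 2 the differences were -0.02 and -0.18. WT 1 was the second highest array for both.

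The network-forming type VIII chains, known from vessel walls and corneal endothelium, had unlike orders over the arrays. Col8a2 had the largest fitted difference of all collagen genes, 1.40 (SE 0.78, limma adjusted p = 0.701), and the widest range over the arrays, 3.87 log2 units. It read -1.79, -3.13 and -3.81 in WT and -1.83, 0.06 and -2.75 in KO, so KO 2 stood far above the rest and the groups overlapped. Col8a1 read 0.13, 1.41 and -1.30 in WT and -1.01, 1.14 and -0.04 in KO, a difference of -0.05 (SE 0.77), with WT 2 the highest array.

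The transmembrane chains Col13a1, Col23a1 and Col25a1 had differences of -0.51, -0.41 and -0.66, with overlapping groups. All were highest on WT 1 and dim, with a mean level under -2. At that level 82.9% of all tested genes had a difference below 0, with a median of -0.44. Col17a1, the transmembrane chain of hemidesmosomes, had a difference above 0, at 0.72 (SE 0.50), but was well above background on only 1 WT and 2 KO arrays. Col7a1, of anchoring fibrils, differed by -0.53 (SE 0.29), and Col20a1 by 0.18 (SE 0.26). Col10a1, Col12a1, Col19a1, Col28a1, Col9a2 and Col9a3 were not well above background on enough arrays to be tested. Col4a3bp, set aside at the start, differed by -0.28 (SE 0.15, limma adjusted p = 0.675).

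The 4 probes with the glycine repeat had their maxima on another array than most collagen probes. Each was highest on WT 1, while 26 of the 37 other measured collagen probes (70.3%) were highest on KO 2. Their median difference was -0.47, against 0.36 for the 37. They were also dim, with a median level of -2.77, and a maximum on WT 1 is common at that level: 63.9% of all tested genes with a mean under -2 had it, against 28.5% of measured probes of any level. For Col14a1 the repeat probe read -1.64, -2.15 and -2.80 in WT and -2.56, -2.08 and -2.77 in KO, a difference of -0.27 (SE 0.32), beside 0.63 for the gene's brightest probe. For Col16a1 the repeat probe differed by -0.79 (SE 0.37), and the 2 other measured probes of the gene by 0.49 and 0.57. For Col15a1 it differed by 0.17 (SE 0.41), beside 0.45. For Col25a1 the repeat probe was the brightest, so the value of -0.66 given above rests on it. The other measured Col25a1 probe, without the repeat, differed by -0.23 (SE 0.24) and was highest on WT 2. The 40 measured probes of other genes with such a repeat had a median difference of 0.00. Their median level was 1.52, so they are not matched to the 4 in brightness, and the part of the repeat was not tested.

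**Figure D4:**
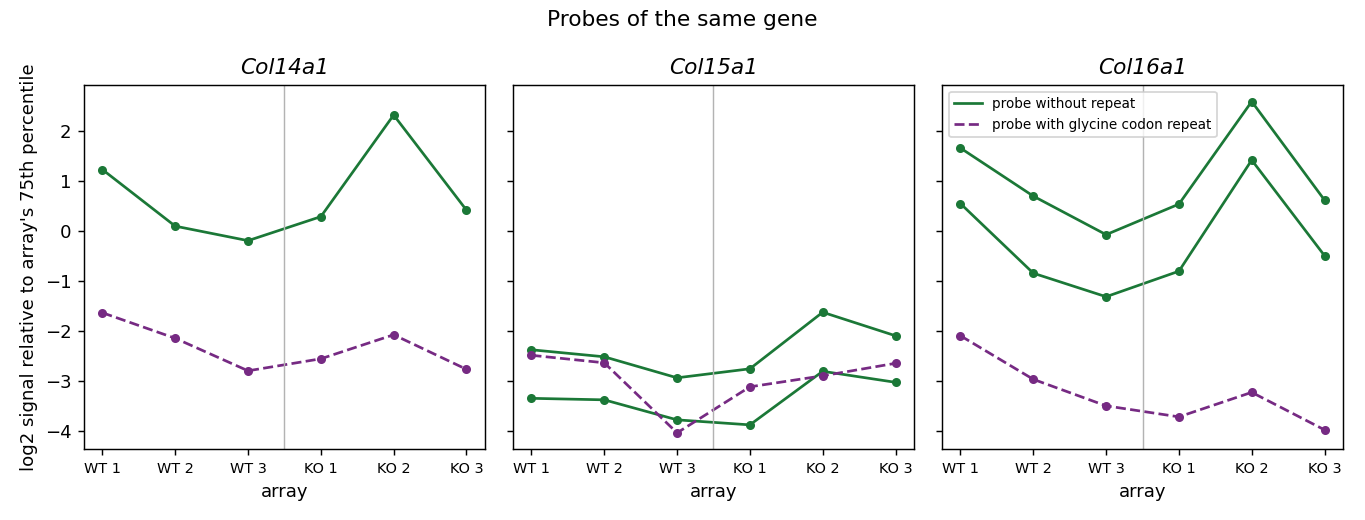
Signal of each measured probe of Col14a1, Col15a1 and Col16a1 (log2 relative to the array's 75th percentile, vertical axis) on the 6 arrays; dashed lines are probes with a run of glycine codons and solid lines the other probes of the gene. The solid lines peak on KO 2, and the dashed lines are highest on WT 1.

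The genes that fold, cut, bind and degrade collagen had no member past an adjusted p of 0.05. Of 22 genes for folding and modification in the endoplasmic reticulum, 17 had a difference above 0, with a median of 0.07. Serpinh1, the collagen chaperone HSP47, was higher on every KO array than on any WT array, at 0.27 (SE 0.17). This was 1 of the 22, where 2.1% of all genes did so. P4ha3, a prolyl hydroxylase subunit, was lower on every KO array, at -0.83 (SE 0.16, limma adjusted p = 0.587). That too was 1 of the 22, where 8.36% of all genes did so. Of 16 genes for procollagen processing and crosslinking, 12 were measured and 9 were above 0, with a median of 0.28. The lysyl oxidase-like enzymes Loxl3 and Loxl1 differed by 1.39 (SE 0.54) and 1.04 (SE 0.58).

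Of 10 collagen receptor genes, 9 were measured and 6 were above 0, with a median of 0.20. Itga11, the integrin chain of fibroblasts that binds fibrillar collagen, had the largest difference in these lists. It was 1.99 (SE 0.63, limma adjusted p = 0.616), with KO arrays all above WT. Itgb1, at 0.20 (SE 0.14), also had KO arrays all above WT. These were 2 of 9, where 2.1% of all genes did so. Gp6 and Lair1, receptors of platelets and leukocytes, differed by -0.85 (SE 0.34) and -0.88 (SE 0.41). Of 13 genes for collagen degradation, 11 were measured and 10 were above 0, with a median of 0.43. Mmp2, a gelatinase, read 1.25, 0.27 and -0.23 in WT and 0.95, 2.71 and 1.28 in KO, a difference of 1.22 (SE 0.54) with the array order of the fibrillar chains at its extremes. Ctsk, a collagenolytic cathepsin, differed by 0.69 (SE 0.36). Mmp8, the neutrophil collagenase, was the exception at -0.67 (SE 0.25), with KO arrays all below WT, as for 8.36% of all genes. P4ha3, Gp6, Lair1 and Mmp8 were dim, with a mean level under -2. At that level 82.9% of all tested genes had a difference below 0, with a median of -0.44. The part of low signal in these differences was not tested.

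The mean of each of these lists was highest on KO 2 and lowest on WT 3, as for the collagen genes, but by unlike amounts. For processing and crosslinking, 10 of the 12 genes were highest on KO 2, and the mean difference of 0.37 was 0.02 without that array, -0.50 on slide 1 and 0.80 on slide 2. For degradation the mean difference of 0.35 was 0.09 without KO 2, -0.48 on slide 1 and 0.76 on slide 2. For receptors it was 0.16, and -0.04 without KO 2, with -0.45 and 0.46 on the slides. For folding and modification it was 0.07, and -0.01 without KO 2, with -0.06 and 0.13 on the slides. The mean deviation of that list spanned only -0.14 to 0.18. Of its genes 27.3% were lowest on WT 3, against 62.5% of the collagen genes.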

How the data were processed

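Total RNA of 3 H19 KO and 3 WT cardiomyocyte preparations was hybridised to 1-colour Agilent arrays, 1 array per sample. The deposited intensity values come from Agilent Feature Extraction 10.7.3.1, per the submitters' processing notes. Per the file headers they were background-subtracted and detrended within the array, with probe coordinates on mm9. The arrays' deposited processed table, used as an alternative, held intensity values that had the same median (69.7) on every array and a rank correlation of 1 with the scanner signals; how its values were scaled is not stated in the labels. The arrays limit precision by their number.

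Control spots (3671) and those with an outlier flag were removed, repeated spots were averaged, and log2 intensity was expressed relative to the array's 75th percentile. Probes that clearly exceeded background on 3 or more of 6 arrays were kept (29990), and the brightest probe of each gene was tested (21888 genes) with limma 3.58.1 (R 4.3.3) and Benjamini-Hochberg adjustment at 0.05, two-sided, without covariates. With 3 arrays per group, an exact permutation test cannot go below p = 0.1. Gene names came from the files, with older names updated through the RefSeq table of GRCm38.p6. The fit was tested on simulated data.

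The collagen genes, classes, marker lists and pathway lists were chosen with earlier results of these data known, so class medians and counts carry no test. In each class the 3 brightest genes, the 3 with the smallest p and every gene with non-overlapping groups were named by rule. Other genes, and the grouping by glycine repeat and by brightness, were chosen after their values were seen. Lists give up to 3 genes with the smallest p. The alternatives tried were other background correction, scaling, filters, probe rules, blocks and a trended prior, the deposited values and leaving out each array. Replicate numbers were not treated as pairs in the main fit. The deviations of same-numbered arrays from their genotype means correlated at -0.22, -0.05 and 0.04. Such deviations sum to 0 over the 3 arrays of a genotype, so these values cannot settle whether the samples were paired.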

Additional observations from a re-analysis of the deposited data

How the results depend on the processing

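The count of genes passing limma's adjusted p of 0.05 (8 of 21888) was 3 with quantile normalization, 3 with the authors' deposited values, 118 when arrays were scaled to their overall probe median, 1 without a filter on dim probes, 1 with the slide as a block, 1 with the replicate block, and 1 to 10 when each array was left out. The cause was not tested. The count for collagen genes was 0 under 16 of the 17 alternatives and 2 with that probe-median scaling, under which the median difference over all genes went from -0.05 to 0.37. There Col5a3 differed by 1.39 (adjusted p = 0.0478) and Col8a2 by 1.82 (adjusted p = 0.0344), 25 collagen genes were above 0 and 7 below, and the basement membrane median was 0.73. Under the other alternatives the lowest collagen adjusted p ran from 0.0592 (without WT 3) to 1.

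Within slide 1 the median difference was -0.83 over all collagen genes, -0.89 over fibrillar, -0.34 over basement membrane and -0.88 over other chains; within slide 2 it was 0.83, 1.38, 0.63 and 0.42. The per-class slide values, the probe split and the brightness split were added after seeing the data. Leaving out each array gave -0.03 (without KO 2) to 0.71 (without KO 1) over all collagen genes, 0.07 to 1.0 over fibrillar, 0.04 to 0.50 over basement membrane and -0.35 to 0.38 over other chains. Without KO 2, 14 collagen genes were above 0 and 18 below. Counting types XV and XVIII as other gave medians of 0.31 for basement membrane and 0.13 for other chains. The replicate block changed no collagen call. Array weights were not run because their estimation did not converge. Signal over background limits the 9 collagen genes that were not tested and Col6a6, Col9a1, Col17a1, Col27a1 and Col4a3, which passed the filter on 3 or 4 arrays.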
